A study of Mus musculus with 4 samples.

Results

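Of the 33268 cell barcodes in 4 libraries of mouse mammary organoid cells, 7198 (21.6%) were single-tag cells with more than 6000 detected genes. A cell was a member when over 6000 genes had at least 1 unique molecular identifier (UMI, 1 per captured RNA molecule), under 5% of its UMIs fell on mitochondrial genes, and its most abundant antibody tag had at least 3 times the UMIs of the next tag. The members were therefore chosen by measured values of the same cells, and every difference in genes or gene UMIs from other cells is given below as a description, with no test. They held 46.0% of all gene UMIs of the series, and from 39.8% in the library of HU-treated wild-type organoids to 57.1% in that of HU-treated Brca2mut/WT organoids. The comparison cells were the 15018 single-tag cells of 3000 to 6000 genes in the same libraries under the same mitochondrial limit.

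The organoids were cultures grown in a gel from mammary epithelial cells of mice, and were wild type (WT) or Brca2mut/WT, that is heterozygous for a germline allele that truncates Brca2, present in every cell of the animal. Of each genotype, 1 library was from untreated organoids (control) and 1 from organoids exposed to hydroxyurea (HU), a drug that depletes nucleotides and stalls DNA replication, and all organoids had been frozen, thawed and regrown before they were dissociated. Each library is labelled as 2 replicates, and 4 antibody tags marked the cells that were pooled in it, but the labels give no key from tag to replicate, no age of the animals and no passage. The study's own text speaks of aged mice, of several animals for each condition and of an early and a late passage, without tying any of these to a tag. Differences between conditions therefore compare single libraries, with 16 tag pools of unknown origin beside them as samples and not as replicates. The libraries held 9358 cells (WT control), 8158 (WT HU), 8113 (Brca2mut/WT control) and 7639 (Brca2mut/WT HU), with 302135155, 258821284, 243430259 and 258118001 gene UMIs. Across libraries 129 of 33139 distinct barcodes (0.389%) occurred more than once, and among the members 6 of 7192 (0.0834%).

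The mammary epithelium has an outer basal layer of contractile cells, which make keratins 5 and 14 and depend on the transcription factor p63, and an inner luminal layer marked by keratins 8 and 18. Luminal cells are hormone receptor positive (HR+), which send paracrine signals such as amphiregulin (Areg), or hormone receptor negative (HR-), the alveolar lineage that makes milk proteins. In droplet sequencing the number of genes seen in a cell grows with the number of RNA molecules captured from it, and a cell that has copied its DNA and prepares to divide is larger and holds more RNA than a resting cell. A droplet that caught 2 cells also shows more genes, and antibody tags show such pairs only where the cells carried different tags.

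The members carried about 2 times as many UMIs as the comparison cells. Their gene number reached 11454 with a median of 6948.5, and their UMIs from 27139 to 373926 with a median of 57189. In HR- luminal cells (Krt14, keratin 14, and Areg both under 300 counts per 1000000 UMIs, CPM) the median was 57141 UMIs in WT control, 53818 in WT HU, 57238 in Brca2mut/WT control and 57046.5 in Brca2mut/WT HU. The comparison HR- luminal cells had medians of 25392, 25831, 26225 and 29194.5 in the same order, so that the members had 1.95 to 2.25 times as many. With every cell thinned at random to 10000 UMIs, the HR- luminal members still showed more genes, with medians of 3035, 3029, 3100 and 3127.5 against 2814, 2827, 2877 and 2882. That is 7.15 to 8.52% more genes at the same depth in all 4 libraries (mean ratio 1.08 ± 0.0056, SD, n = 4 libraries). Their 50 most abundant genes took a smaller share of UMIs, with a ratio to the comparison of 0.857 to 0.877. Basal members (Krt14 of 500 CPM or more) showed 4.22 to 5.48% more genes at 10000 UMIs than basal comparison cells, and Areg-high members (Areg of 300 CPM or more and Krt14 under 500 CPM) showed 1.11 to 3.70% more than their counterparts.

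At the limit itself the cells on either side were close. The 484 single-tag cells within 100 genes above the limit had a median of 40063 UMIs, 3031 genes at 10000 UMIs and 33.7% of cells with G2/M transcripts (defined below). The 450 cells within 100 genes below it had 39140 UMIs, 3003 genes and 30.9%. The 1446 members over 8000 genes had 108380 UMIs, 3167 genes and 62.6%. The closeness in UMIs and genes follows from the choice of cells beside the limit.

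Antibody tags bind the cell surface. The rule used their ratio and not their total, but the total is not independent of a choice by tag ratio and gene number. The median number of tag UMIs was 1956.5, 1864, 2456 and 2178 in the members of WT control, WT HU, Brca2mut/WT control and Brca2mut/WT HU, and 1268, 1188.5, 1322 and 1209 in the comparison cells. The members were higher in 4 of 4 libraries, with a mean log2 ratio of 0.75 ± 0.14 (SD, n = 4). An exact two-sided sign-flip permutation test over the 4 libraries gave p = 0.13, the smallest p that 4 libraries allow. The design could not pass a threshold of 0.05, and the total is tied to the choice of cells. No conclusion is therefore drawn from this test. Within HR- luminal cells the mean log2 ratio was 0.81 ± 0.16. The members were higher in 16 of 16 tag pools as well, by a factor of 1.56 to 2.28.

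Pairs of cells with different tags gave a measure of doublets, and no doublet caller was run. Over 6000 genes and under the same mitochondrial limit, 714 cells had no dominant tag and were not members: 284 in WT control, 197 in WT HU, 130 in Brca2mut/WT control and 103 in Brca2mut/WT HU. They made up 13.5, 11, 7.16 and 4.65% of the cells over 6000 genes, against 2.58, 2.25, 1.26 and 2.29% of the cells of 3000 to 6000 genes. If cells paired at random with respect to tag, the tag shares of each library imply that 115, 72.9, 43.7 and 38.5 members were pairs with the same tag. That would be 6.31% of the members in WT control, 4.6% in WT HU, 2.60% in Brca2mut/WT control and 1.83% in Brca2mut/WT HU. This estimate leaves out pairs of different tags whose tag UMIs differ 3-fold or more, which pass the rule. With the first tag at 10 times the second, the members were 1421, 1246, 1569 and 1908 in place of 1816, 1587, 1685 and 2110. How many of the members were such pairs was not tested. These cells with several tags are given beside the results below as a reference for what pairs look like.

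The share of cells that passed 6000 genes spread more widely between the tags of a library than between the libraries. Members were 28.0% of the single-tag cells over 3000 genes in WT control (exact Clopper-Pearson 95% interval 26.9 to 29.1), 28.0% in WT HU (26.8 to 29.2), 32.3% in Brca2mut/WT control (31.0 to 33.6) and 43.6% in Brca2mut/WT HU (42.2 to 45.0). All such intervals cover counting error only. A fixed limit of genes also depends on the UMIs per cell. Over all cells the library medians were 26188, 26726, 25444 and 29087 UMIs in the same order, highest in Brca2mut/WT HU. The part of depth in the shares was not tested. Within HR- luminal cells the shares were 24.5, 23.4, 30.9 and 42.6%. For tags 1 and 3 the share lay between 15.9 and 29.0% in every library, and for tags 2 and 4 between 37.5 and 72.3%, with no overlap. The highest share was that of tag 2 in Brca2mut/WT HU (72.3%, 69.8 to 74.8), followed by tag 4 of the same library (57.4%) and tag 4 of WT control (50.5%). The labels do not tie a tag number to the same sample in different libraries, so tags of equal number are not matched pairs. By number, the share under HU was higher for each of the 4 tags in Brca2mut/WT. In WT it was higher for tags 1 and 3 and lower for tags 2 and 4.

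**Figure D1:**
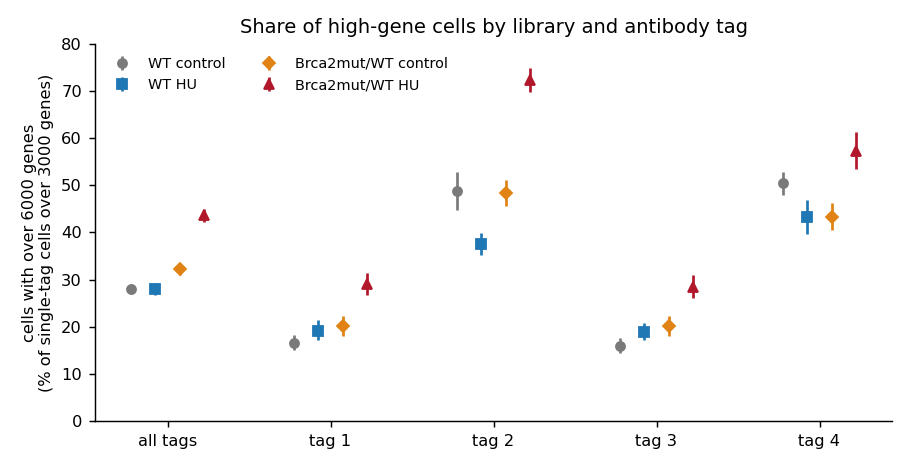
Share of single-tag cells over 3000 genes that had over 6000 genes (%, y axis), for all tags of a library and for each antibody tag (x axis), with exact 95% intervals and 1 symbol per library. In every library tags 2 and 4 lie above tags 1 and 3, between 37.5 and 72.3% against 15.9 to 29.0%.

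By their marker genes the members were mostly HR- luminal. Of the 7198 members, 5343 (74.2%) were HR- luminal, 1172 (16.3%) basal, 562 (7.81%) Areg-high and 121 (1.68%) had Krt14 of 300 to 500 CPM with Areg under 300 CPM. HR- luminal cells made up 69.2% of the members in WT control, 60.4% in WT HU, 82.7% in Brca2mut/WT control and 82.2% in Brca2mut/WT HU, each below the comparison cells (82.6, 77, 88.1 and 85.7%). Areg-high cells made up 8.87, 9.33, 6.29 and 6.97% of the members, against 2.84, 3.06, 2.92 and 2.86%. Basal cells made up 20, 27.7, 9.67 and 9.81%, against 12.5, 18.3, 8.01 and 9.94%, so their share was higher among members in the WT libraries and about the same in Brca2mut/WT HU. Near the limits were 151 members at 200 to 300 CPM of Krt14, 150 at 300 to 500 CPM, 48 at 500 to 600 CPM and 76 members under 300 CPM of Krt14 at 200 to 400 CPM of Areg. Of the 1172 basal members 144 had Areg of 300 CPM or more.

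The class names were checked against fixed marker lists. Summed over the 10 HR- luminal markers (Elf5, the alveolar transcription factor, Kit, Csn3, Lalba and others), HR- luminal members had 27174 to 33737 CPM per library, against 95.4 to 196 CPM for the 11 basal markers, Krt14 included. Basal members had 10682 to 11860 CPM of the basal markers. Krt14, the gene that set this class, was 6661 to 7770 CPM of these sums, so they rest largely on the defining gene. The HR- luminal markers summed to 4774 to 7150 CPM in the same basal members. The Areg-high members had 6624 to 8672 CPM of the 9 HR+ markers, including Areg itself. Other cell types were nearly absent from the HR- luminal members: endothelial markers summed to 0.964 to 1.46 CPM, immune markers to 2.52 to 3.42 CPM and fibroblast markers to 4.42 to 12.1 CPM. In the Areg-high members fibroblast markers reached 268 to 1837 CPM, against 613 to 1703 CPM in the Areg-high comparison cells.

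The members differed from the comparison cells in the cell cycle. After thinning to 10000 UMIs, a cell was counted for S phase when at least 10 of 43 genes of DNA replication were detected, and for G2/M when at least 10 of 54 genes of mitosis were. Among HR- luminal members 31.0, 30.7, 27.3 and 28.3% passed for S phase in WT control, WT HU, Brca2mut/WT control and Brca2mut/WT HU, against 4.79, 5.42, 5.28 and 3.85% of the comparison cells. For G2/M 45.5, 43.3, 44.2 and 40.5% passed, against 13.4, 13.8, 15.8 and 13.6%. In 16 of 16 tag pools both shares were higher in the HR- luminal members, by a factor of 2.93 to 7.13 for S phase and 1.94 to 3.22 for G2/M. Both scores count detected genes, and the members were chosen by their number of detected genes. At this depth the HR- luminal members showed 7.15 to 8.52% more genes in all. The choice therefore favours higher shares in the members, here and in the other classes below. About as many HR- luminal members passed neither count as passed at least 1 of them, since 48.4, 46.1, 47.1 and 44.5% passed at least 1. The gap depended on the count needed: with 5 genes needed in place of 10 the mean difference in G2/M share went from 29.2 to 9.02 percentage points.

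Along the range of gene numbers the cycling share of HR- luminal cells was higher at each step from 4000 genes upward, on both sides of the limit. In HR- luminal cells of 4000 to 5000 genes the G2/M share was 7.36 to 10.9% over the 4 libraries, at 5000 to 6000 genes it was 17.2 to 22.7%, and at 6000 to 7000 genes 32.2 to 39.7%. Beyond 8000 genes it was 56.4 to 66.9%. The S phase share went from 0.935 to 2.81% at 4000 to 5000 genes up to 39.9 to 44.5% beyond 8000. Genes at equal depth went up along the same range, from 2787 to 2833 genes at 4000 to 5000 to between 3103 and 3226 beyond 8000. The cells of 3000 to 4000 genes had a G2/M share of 8.64 to 16.8%, which was above that at 4000 to 5000 genes in Brca2mut/WT HU and below it in the other libraries. Among cells of the same UMI range (30000 to 50000) the HR- luminal members passed for S phase more often. Their shares were 28.8, 33.0, 26.3 and 27.2%, against 10.6, 9.26, 10.3 and 5.36%. Within this range their median UMIs were higher (43475 against 34309 in WT control). The gene limit also picks cells with more genes per UMI here (3055 against 2809.5 genes at 10000 UMIs in WT control). That choice favours a score that counts detected genes, so nothing is concluded from this comparison.

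**Figure D2:**
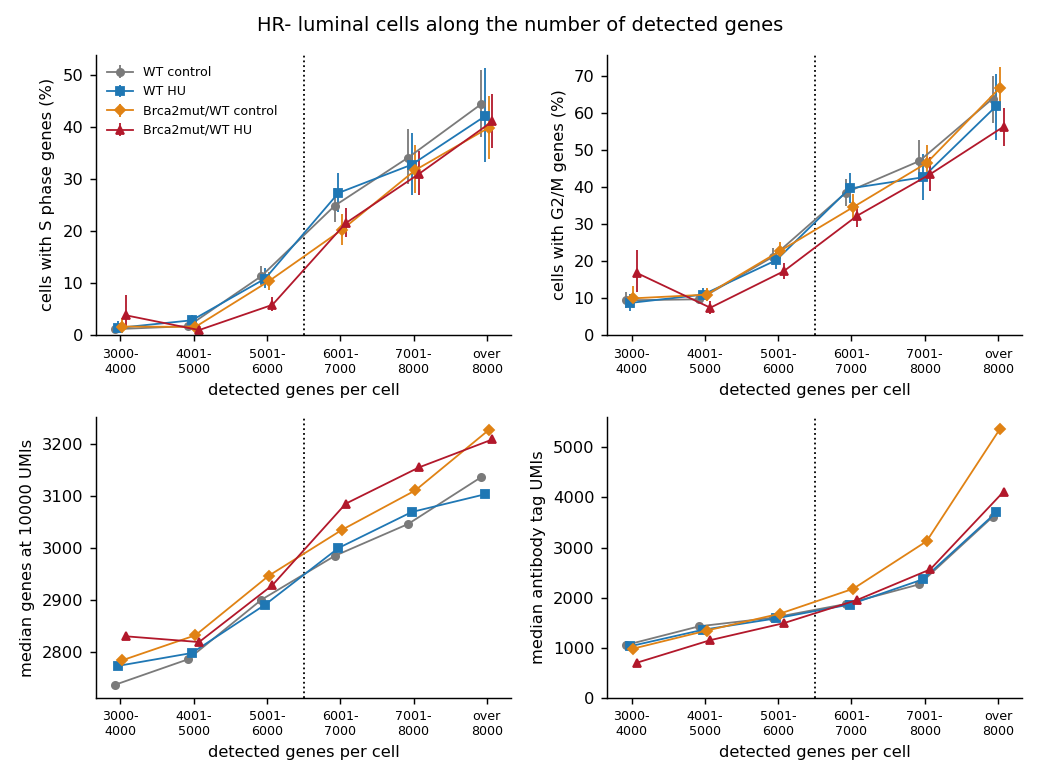
HR- luminal single-tag cells in 6 ranges of detected genes (x axis): share of cells passing the S phase and G2/M counts (%), median genes at 10000 UMIs and median antibody tag UMIs (y axes), with 1 line per library, exact 95% intervals on the shares and a dotted line at 6000 genes. The G2/M share goes from 7.36 to 10.9% at 4000 to 5000 genes to 56.4 to 66.9% beyond 8000, and the median genes and tag UMIs are also higher in the ranges above the limit.

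Gene levels were compared within HR- luminal cells. UMIs were summed per class and library and scaled to CPM, and a gene was called where members and comparison cells differed at least 1.5-fold, on log2(CPM + 1), the same way in all 4 libraries. Of 5468 genes with 20 CPM or more, 182 were called higher (3.33%) and 35 lower (0.64%). As the members were chosen in this contrast, nothing is read from these shares. The median of all genes was itself 0.12 to 0.16 higher (log2) in the members, and with scaling factors that centre the genes (TMM) the calls became 124 higher and 55 lower, so that 69.3% of calls were higher in place of 83.9%. Of the 182 genes, 60 belonged to lists of S phase, G2/M, cytokinesis or histone genes, and 117 belonged to no list used here.

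Genes of DNA replication were among those called higher. Over all 43 genes of the S phase list the summed level was 1268, 1319, 1237 and 1242 CPM in the members of WT control, WT HU, Brca2mut/WT control and Brca2mut/WT HU, against 525, 546, 540 and 492 CPM. The list had 25 genes at 20 CPM or more, of which 22 were called higher and none lower (median log2 ratio 1.22 to 1.35). A gene could reach 20 CPM through the members alone, as Rrm2 and Clspn below did. This count and those of the lists that follow are therefore partly set by the filter. Rrm2, the regulatory subunit of ribonucleotide reductase, the enzyme that HU inhibits, had 76.7, 80.6, 83.5 and 77.5 CPM in the members of WT control, WT HU, Brca2mut/WT control and Brca2mut/WT HU, against 14.7, 15.9, 14.4 and 10.2 CPM in the comparison cells. The smallest log2 ratio was 2.27, and all 4 members lay above all 4 comparison values, which the filter and the call rule favour. Pcna, the sliding clamp of the replication fork, had 91.4, 94.1, 88.3 and 89.4 CPM against 37.4, 36.6, 36.4 and 33.4 CPM. Clspn, which carries the replication checkpoint signal to Chk1, was the other of the S phase genes with the largest difference (25.3, 28.8, 24.9 and 25.4 CPM against 5.06, 4.81, 4.99 and 3.13 CPM).

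Histone genes, which supply the proteins that pack newly made DNA, were called higher for 5 of 6 tested out of 12, with a median log2 ratio of 1.72 to 1.94. Hist1h1b, a linker histone gene, had 162, 152, 147 and 114 CPM in the members against 23.1, 27.2, 21.5 and 16.2 CPM. Hist1h2ap had 102, 54.5, 131 and 130 CPM against 15.2, 8.31, 17.7 and 12.7 CPM, and its smallest log2 ratio, 2.57, was the largest of all genes called. Hist1h2ae had 61.8, 33.6, 54.3 and 50.3 CPM against 8.71, 5.44, 6.71 and 3.70 CPM. Hist1h2ap and Hist1h2ae were under 20 CPM in every comparison library and passed the filter through the members, which bears on the rank of Hist1h2ap. The core histone genes have near-identical copies, so the reads of Hist1h2ap and Hist1h2ae could belong to a neighbouring copy. H2afz, a variant histone made throughout the cycle that the list also held, was called higher too (1073 to 1168 CPM against 519 to 592 CPM).

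Genes of mitosis were called higher as well. Over all 54 genes of the G2/M list the summed level was 3714, 3938, 3941 and 3403 CPM in the members, against 1456, 1556, 1668 and 1409 CPM. Of the 37 tested 30 were called higher and none lower (median log2 ratio 1.43 to 1.67), as were 5 of 5 tested of 12 cytokinesis genes (1.69 to 2.06). Top2a (chr11:98992943-99024189 in GRCm38), the topoisomerase that untangles copied chromosomes, had 138, 135, 141 and 106 CPM in the members against 24.2, 21.4, 23.1 and 12.1 CPM. Its log2 ratio was 2.47 to 3.02, with a counting standard error of 0.032 to 0.052. Ube2c, which with the anaphase-promoting complex marks cyclins for destruction, had 166, 202, 190 and 142 CPM against 32.5, 37.1, 41.3 and 26.6 CPM. Mki67, the coat of mitotic chromosomes used to stain dividing cells, had 117, 121, 143 and 114 CPM against 25.7, 22.9, 30.3 and 19.4 CPM. For each of these genes the lowest member library was above the highest comparison library, in the direction that the call rule fixes. Nusap1 and Prc1, which bundle spindle microtubules, and Kif11, the motor that separates the spindle poles, completed the 10 rises with the largest smallest log2 ratio, at 2.36, 2.16 and 2.28. Nusap1, Prc1 and Kif11 were under 20 CPM in every comparison library and passed the filter through the members. In cytokinesis Cdca8 and Incenp, partners of the kinase Aurora B, had 65.3 to 83.5 and 27.6 to 34.1 CPM in the members against 16.6 to 25 and 5.84 to 8.29 CPM. Incenp also passed the filter through the members. Of the G2/M genes Tubb4b, a tubulin, and Hmgb2, a chromatin protein, were named as the most abundant of the list and were called higher, with median log2 ratios of 0.73 and 1.56.

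Promoters of genes of late cell cycle are known to share CCAAT boxes, bound by the factor NF-Y, and cell cycle homology elements of the letters TTTGAA, bound by the DREAM complex. The windows of 3 G2/M genes from the 10 leading rises are shown to let a reader see how dense these letters are, from 250 bases before to 50 after the start of the gene (RefSeq, build GRCm38.p6), 5′ to 3′ on the strand of the gene, in lower case with CCAAT or ATTGG (the other strand) and TTTGAA or TTCAAA in capitals, which in Ube2c overlap once as CCAATTGG.
Top2a, chr11:99024140-99024439, minus strand: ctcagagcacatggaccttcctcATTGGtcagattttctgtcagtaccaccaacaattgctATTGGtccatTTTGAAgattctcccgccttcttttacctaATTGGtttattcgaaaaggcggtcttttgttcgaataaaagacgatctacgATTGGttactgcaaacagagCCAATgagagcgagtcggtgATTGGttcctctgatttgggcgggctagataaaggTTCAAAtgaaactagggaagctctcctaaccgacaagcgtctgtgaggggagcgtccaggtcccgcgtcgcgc
Ube2c, chr2:164769679-164769978, plus strand: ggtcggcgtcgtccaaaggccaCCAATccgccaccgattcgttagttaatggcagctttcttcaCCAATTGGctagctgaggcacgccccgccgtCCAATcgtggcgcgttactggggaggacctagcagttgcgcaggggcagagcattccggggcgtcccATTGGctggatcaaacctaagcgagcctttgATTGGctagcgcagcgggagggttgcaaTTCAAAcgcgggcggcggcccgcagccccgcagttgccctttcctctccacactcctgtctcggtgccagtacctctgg
Mki67, chr7:135716330-135716629, minus strand: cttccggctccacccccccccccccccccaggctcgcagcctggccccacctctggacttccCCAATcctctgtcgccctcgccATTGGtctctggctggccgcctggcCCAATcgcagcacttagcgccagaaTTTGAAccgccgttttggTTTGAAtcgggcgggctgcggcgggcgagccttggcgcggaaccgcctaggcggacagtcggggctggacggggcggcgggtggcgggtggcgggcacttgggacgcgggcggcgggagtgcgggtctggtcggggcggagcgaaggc

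These windows held 6, 6 and 3 CCAAT boxes and 2, 1 and 2 TTTGAA elements. The windows of Kif11 held 1 of each and that of Nusap1 none. Of the 30 G2/M genes called higher 28 had a window, and 75% of these held a CCAAT box on either strand, 75% TTTGAA and 64.3% both. Of 4410 tested genes with a window the shares were 38.6, 11.2 and 4.81%, and of all 27025 windows 37.9, 18.1 and 7.12%. Of the 142 windows of all genes called higher, 61.3% held a CCAAT box, 33.8% TTTGAA and 25.4% both. A match of letters is a description, and binding was not measured here.

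Growth-related lists had medians nearer to that of all genes. Ribosome biogenesis genes were called higher for 3 of 14 (Nop56, Nolc1 and Nhp2, of the nucleolar machinery that modifies ribosomal RNA), with a list median of 0.38 to 0.54 against 0.12 to 0.16 for all genes. Nolc1 had 55.7, 57.5, 46.3 and 56.2 CPM in the members against 27.2, 32.0, 26.1 and 29.2 CPM. Cholesterol synthesis genes were called higher for 2 of 15, Cyp51 and Mvd, with a list median of 0.45 to 0.68. No gene was called in the lists of fatty acid synthesis (9 tested), p53 targets (11), interferon response (15), hypoxia and glycolysis (14), immediate early genes (14), stress and unfolded protein (10), nuclear retained RNA (3), pan-luminal keratins (5), HR+ markers (2) and genes discussed in the study (11). Cdkn1a, the p53 target that halts the cycle, had 248, 283, 348 and 357 CPM in the members against 169, 258, 243 and 263 CPM. Bax, which opens mitochondria in apoptosis, had 203, 237, 199 and 251 CPM against 117, 170, 147 and 166 CPM, above the comparison in each library but not by 1.5-fold in all. None of the genes of homologous recombination and the Fanconi pathway or of squamous differentiation and no fibroblast, endothelial or immune marker reached 20 CPM in all 4 libraries of this class, so none was tested. Brca2 was under that level too, with 11.9, 12.7, 9.19 and 10.3 CPM in the members against 5.43, 5.16, 4.22 and 3.80 CPM.

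**Figure D3:**
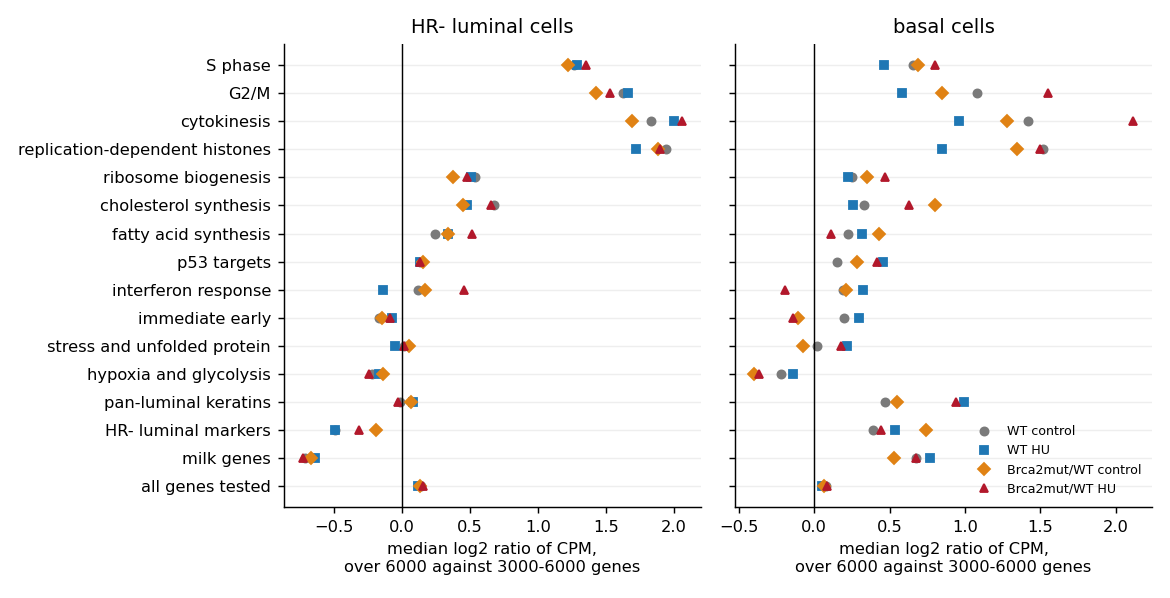
Median log2 ratio of CPM, members over 6000 genes against cells of 3000 to 6000 genes (x axis), for each gene list (y axis) in HR- luminal and basal cells, with 1 symbol per library. In HR- luminal cells the cytokinesis (1.69 to 2.06), histone, G2/M (1.43 to 1.67) and S phase (1.22 to 1.35) lists stand to the right of all others, and milk genes (-0.73 to -0.64) to the left.

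Of the 35 genes lower in HR- luminal members 4 were in a list used here and 31 in none. Of 5 milk genes tested (of 12) 3 were called lower, and the list median was -0.73 to -0.64. Csn1s1, alpha-casein, had 827, 884, 437 and 408 CPM in the members against 1801, 1550, 936 and 923 CPM. Mfge8, the milk fat globule protein, had 3026, 2924, 2567 and 2639 CPM against 5068, 4547, 4072 and 4380 CPM. Lalba, which with a transferase makes lactose, had 216, 306, 188 and 278 CPM against 354, 579, 337 and 650 CPM. Csn3, kappa-casein, was lower in each library without a call (13586 to 15427 against 18464 to 21681 CPM). Of the 9 HR- luminal markers tested Lalba and Mfge8 were called lower, and of 3 basal markers Acta2. Because members had more UMIs in all, a lower CPM need not mean fewer molecules per cell.

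The largest fall was that of Sparc (chr11:55394500-55423183), a matrix protein, with 27.2, 32.0, 21.4 and 18.0 CPM in the members against 85.2, 81.9, 83.0 and 112 CPM (smallest log2 ratio -1.33). Per cell this was 1.84, 1.97, 1.42 and 1.24 UMIs against 2.21, 2.16, 2.23 and 3.26, so the difference in molecules per cell was smaller than in CPM. Ecrg4, a secreted peptide precursor, had 139, 221, 111 and 162 CPM against 417, 476, 379 and 480 CPM, or 9.42, 13.6, 7.37 and 11.2 against 10.8, 12.5, 10.2 and 14 UMIs per cell. Acta2, smooth muscle actin and a basal marker, had 14, 20, 24.4 and 11.9 CPM against 40.2, 48.3, 47.2 and 76.5 CPM. Vwa1 and Cxcl12, a matrix protein and a chemokine, and Rflnb, Pla2g7, Emb, Palld and Plb1 completed the 10 leading falls, with smallest log2 ratios from -1.16 to -0.85. Picked after their values were seen, 6 of 9 collagen genes tested were also called lower, against 0.64% of all genes (Col4a1, Col4a2, Col9a1, Col9a2, Col11a1 and Col16a1), such as Col11a1 with 170 to 194 CPM against 320 to 351 CPM. With TMM factors all 35 lower calls were kept. Among cells of 30000 to 50000 UMIs 4 were left (Ecrg4, Csn1s1, Mgp and Mfge8) and no collagen gene, while the median log2 ratios of Sparc, Acta2 and Palld turned to 0.25, 0.63 and 0.34. With equal weight for the 4 tags of a library, 99 genes were called higher and 9 lower, and without the WT HU library 225 and 57.

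Fewer genes were called without cycling cells. Without the cells that passed either cell cycle count on both sides, 6 of 5225 genes were called higher, 4 of them among the 182, and 18 lower, 17 of them among the 35. No G2/M or S phase gene was left among the higher calls, which the removal itself favours, since it picked cells by these genes. The 6 were Tbx3, Ccnd2, Wfdc2, Tspan1, Ckb and 1 gene with only a clone name. Tbx3, a transcription factor of mammary development, had 35.6, 21.2, 56.5 and 45.4 CPM in the non-cycling members against 13.4, 9.04, 27.7 and 16.3 CPM. Ccnd2, cyclin D2, which acts at the entry into the cycle, had 41.3, 39.5, 22.3 and 24.8 CPM against 16.2, 17.1, 10.8 and 11.8 CPM. Wfdc2, a secreted protease inhibitor, had 543, 650, 394 and 382 CPM against 291, 267, 211 and 178 CPM. The call rule fixes the direction of these genes, and Ccnd2 in all 4 libraries and Tbx3 in 3 of 4 were under 20 CPM in the comparison cells, so that they passed the filter through the members. These 6 were found after the values were known and rest on the same cells as the rule.

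Basal members cycled more often than HR- luminal members. Of the basal members 38.8, 51.0, 31.9 and 43.5% passed for S phase in WT control, WT HU, Brca2mut/WT control and Brca2mut/WT HU, against 10.1, 21.5, 9.54 and 14.9% of basal comparison cells. For G2/M 59.0, 62.4, 52.1 and 54.1% passed, against 27.5, 35.6, 23.7 and 30.1%. In WT HU the difference was not present among basal cells of 30000 to 50000 UMIs, with 47.3 against 43.9% for S phase and 58.9 against 59.4% for G2/M. In Brca2mut/WT HU the shares in this range were 35 against 28% for S phase and 43.3 against 28% for G2/M. In WT control they were 36.2 against 19.0% and 56.9 against 34.4%, and in Brca2mut/WT control 34.8 against 18.8% and 47.8 against 34.8%. Of 5530 genes tested 75 were called higher (1.36%) and 12 lower (0.217%), and 30 of the 75 were in the cell cycle or histone lists. Among basal cells of 30000 to 50000 UMIs the balance turned, with 4 genes called higher and 19 lower, of which 2 and 1 were among the first calls. Of 38 G2/M genes 19 were called higher, of 23 S phase genes 3, of 8 cytokinesis genes 8 and of 6 histone genes 4. Top2a had 162, 181, 135 and 182 CPM in the basal members against 29.9, 74.7, 37.4 and 26.6 CPM. Nusap1, Prc1, Ube2c and Aurkb, the mitotic kinase Aurora B, had smallest log2 ratios of 1.42, 1.37, 1.25 and 1.25. Nusap1 and Aurkb were under 20 CPM in every basal comparison library and passed the filter through the members. Without the WT HU library 117 genes were called higher and 28 lower, and without WT control 94 and 23.

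Some luminal genes were also called higher in the basal members: 2 of 7 HR- luminal markers tested (Csn3 and Lalba), 2 of 6 pan-luminal genes (Krt8 and Krt18) and 0 of 4 HR+ markers. Krt8 had 985, 1107, 1288 and 1166 CPM against 523, 566, 755 and 431 CPM, and its partner Krt18 had 1085, 1252, 1558 and 1448 CPM against 544, 616, 930 and 591 CPM. Csn3 had 2645, 2051, 2382 and 1677 CPM against 1513, 1101, 1037 and 1052 CPM, and Lalba and Aqp5, a water channel of alveolar cells, were called higher too. Trp63, which encodes p63, was the 1 basal marker of 9 called lower, with 34.2, 38.3, 43.8 and 40.3 CPM against 54.4, 59.4, 66.9 and 76.9 CPM. The summed HR- luminal markers were 6882, 5271, 7150 and 4774 CPM in the basal members, 5042, 3720, 4535 and 3509 CPM in the basal comparison cells, and 16090, 11710, 16565 and 12556 CPM in the Krt14-high cells with several tags. In all 4 libraries the basal members lay between the other cells for these markers, and for the HR- luminal markers closer to the comparison cells. The pan-luminal keratins and Epcam summed to 4489, 4403, 5741 and 5173 CPM against 3047, 2593, 4257 and 2821 CPM, and to 5845, 5107, 7506 and 6604 CPM with several tags, and here the basal members were closer to the cells with several tags in all libraries but Brca2mut/WT control. Of the basal members 78.2, 64.0, 67.5 and 59.4% had at least 3 markers of each lineage at 2 or more UMIs after thinning, against 74.9, 69.4, 65.0 and 66.5% of the comparison cells, whereas of the HR- luminal members 0.58 to 0.96% had. Without the cells with markers of both lineages 28 genes were called higher in basal members, 24 of them among the 75. Of the Krt14-high cells with several tags 65.0% had. The part of pairs of cells, of the same or of different tags, in these luminal signals was not tested.

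**Figure D4:**
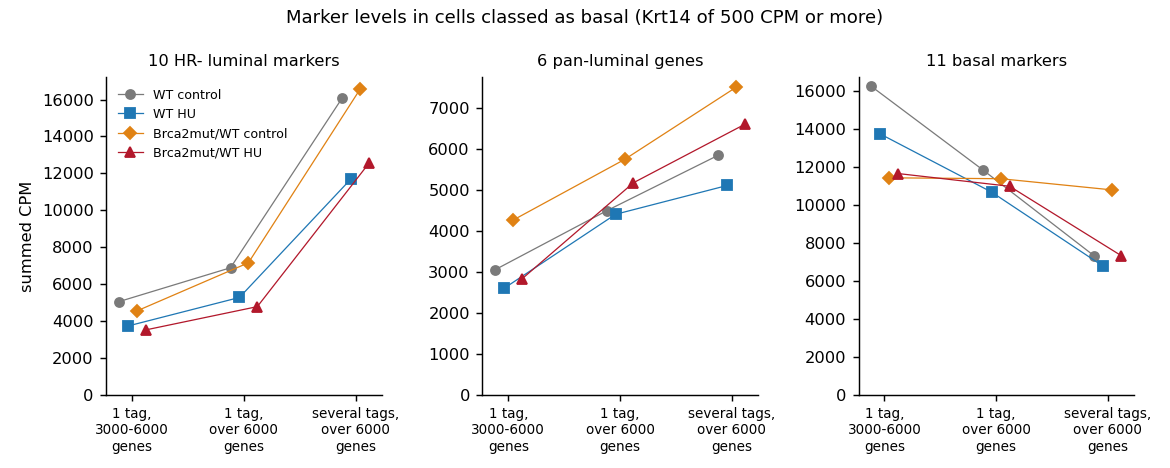
Summed CPM of marker lists (y axes) for HR- luminal, pan-luminal and basal genes in cells with 500 CPM or more of Krt14, of 3 kinds (x axis: single-tag cells of 3000 to 6000 genes, single-tag members, and cells over 6000 genes with several tags), with 1 line per library. For HR- luminal markers the members (4774 to 7150 CPM) lie between the comparison cells (3509 to 5042 CPM) and the cells with several tags (11710 to 16565 CPM).

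Of the genes lower in basal members Apoe, a lipid carrier, had 53.7, 228, 168 and 272 CPM against 180, 428, 369 and 921 CPM, but its median log2 ratio turned to 0.68 among cells of 30000 to 50000 UMIs. Ndufa4l2, a hypoxia-induced mitochondrial protein, had 627, 265, 405 and 167 CPM against 1175, 487, 770 and 400 CPM. Fxyd4, a regulator of the sodium pump, Ndrg2 and Mir205hg, the host of a microRNA, completed the 5 leading falls with smallest log2 ratios of -1.17, -0.91 and -0.78. In the squamous differentiation list, which was measured in basal cells (7 genes tested), none was called, and its median lay between -0.65 and 0.92 over the libraries. No gene was called in the basal lists of p53 targets (12 tested), interferon response (12), ribosome biogenesis (15), cholesterol synthesis (11), fatty acid synthesis (8), hypoxia and glycolysis (15), immediate early genes (13), stress and unfolded protein (9), HR+ markers (4) and nuclear retained RNA (3), nor was Rbbp8, the 1 gene of homologous recombination tested. Without cycling cells 29 genes were called higher in basal members, 21 of them among the 75, and 10 lower. Picked after their values were seen, the leading ones were Dynap, Serpinb2, a serine protease inhibitor, Akap12, a kinase scaffold, and Cldn7, a tight junction protein of luminal cells. Dynap and Serpinb2 in all 4 libraries and Akap12 in 3 of 4 were under 20 CPM in the comparison cells and passed the filter through the members.

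Areg-high members were the smallest named class, with 161, 148, 106 and 147 cells. For S phase 25.5, 26.4, 26.4 and 25.2% of them passed, against 6.02, 5.60, 1.94 and 7.69% of the Areg-high comparison cells. For G2/M 42.2, 48.0, 49.1 and 44.2% passed, against 30.8, 26.4, 17.5 and 17.9%. Their HR+ markers were lower in sum than in the comparison cells (6624 to 8672 against 8493 to 12052 CPM) and their HR- luminal markers higher (4398 to 8553 against 2011 to 4154 CPM), with 10137 to 15653 CPM of HR- luminal markers in Areg-high cells with several tags. The part of pairs of cells, of the same or of different tags, in these Areg-high values was not tested.

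Between libraries the HR- luminal members were compared by single libraries, with no test, and both contrasts below use the same 4 libraries. HU against control, called at 1.5-fold the same way in both genotypes, gave 6 higher (0.0995%) and 11 lower (0.182%) of 6030 genes with 20 CPM or more in at least 1 library. Cyp1b1, a cytochrome that oxidises oestrogens and xenobiotics, went from 11 (exact Poisson 95% interval 10.3 to 11.7) to 42.2 CPM (40.6 to 43.9) in WT and from 12.2 (11.5 to 12.9) to 25 CPM (24.1 to 25.9) in Brca2mut/WT. In WT HU tags 2 and 4 were at 60.0 and 71.7 CPM and tags 1 and 3 at 18.0 and 19.4 CPM. In Brca2mut/WT HU tag 4 alone was at 91.7 CPM and the other tags at 19.0 to 23.0 CPM. Cyp1b1, Arrdc3 and Per1 were under 20 CPM in both control libraries and passed the filter through the HU libraries. Per1, a clock gene, went from 13.2 to 22.8 and from 11.3 to 19.5 CPM, and Arrdc3, an arrestin, from 13.8 to 24.4 and from 15.3 to 28.8 CPM. For Per1 each tag under HU was above every tag of the control library of its genotype, but the gene was picked for its rise in these same cells. Mir22hg and Acot1 were the other leading rises, by 0.64 and 0.60 (log2) at the least. Acot1 passed the filter through the WT HU library alone (29.7 CPM, against 14.2 CPM in Brca2mut/WT HU). Letm2, a mitochondrial protein gene, went from 18.4 to 9.47 and from 24.9 to 11.7 CPM, and passed the filter through the Brca2mut/WT control library alone. Pglyrp1, a secreted antibacterial protein, went from 3781 to 2150 and from 5565 to 3550 CPM. Fcgbp, a mucus protein, went from 299 to 182 and from 231 to 123 CPM, but differed more between tags, with 236 to 818 CPM in tags 1 and 3 and 11.8 to 43.5 CPM in tags 2 and 4. Tmigd1 and Lmod1 were the other leading falls, and both were highest in tag 2 of the control libraries. The cell cycle lists held no call in either direction, and Kcnq1ot1 was the 1 call among all lists. Without cycling cells 4 of the 6 higher and 6 of the 11 lower calls were left. Arrdc3, Acot1, Pglyrp1 and Kcnq1ot1 were then not called.

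Brca2mut/WT against WT, called the same way in control and HU, gave 35 higher (0.58%) and 26 lower (0.431%). Fetub, a protease inhibitor, went from 23.1 to 131 CPM in control and from 15.0 to 87.5 CPM under HU. The difference lay in tag 2, at 249 and 156 CPM in the Brca2mut/WT libraries, with the other tags at 7.80 to 34.7 CPM. Tmigd1 had a like pattern (43.8 to 186 and 13.8 to 107 CPM, with tag 2 at 372 and 196 CPM), and Cyb5r2, Rragd and Ncald were highest in tag 2 of these libraries as well. Cyb5r2 and Rragd were under 20 CPM in both WT libraries and passed the filter through the Brca2mut/WT libraries. With equal weight for the 4 tags 5 genes were called higher and 17 lower, 5 and 15 of them among the first calls. Krt14 went from 85.5 to 27.7 and from 76.5 to 27.6 CPM, in cells that were limited to under 300 CPM of Krt14. All 8 tags of the Brca2mut/WT libraries (21.9 to 41.3 CPM) were below all 8 of WT (65.9 to 90 CPM). This was not particular to the members. The comparison HR- luminal cells had 88.0 CPM of Krt14 in WT control, 72.8 in WT HU, 29.4 in Brca2mut/WT control and 30.5 in Brca2mut/WT HU. Krt14 also defines the basal cells, which were more frequent in the WT libraries. Basal cells made up 12.5% of the comparison cells in WT control, 18.3% in WT HU, 8.01% in Brca2mut/WT control and 9.94% in Brca2mut/WT HU. Whether Krt14 or Krt5 RNA of basal cells in the same library entered these HR- luminal values was not tested. Saa2 and Saa1, acute phase proteins, went from 89.9 to 23.4 and from 138 to 48.6 CPM in control, with tag 2 of the Brca2mut/WT control library at 3.40 and 6.71 CPM. Slpi, a secreted antiprotease, went from 337 to 119 and from 425 to 139 CPM, and Csf3, a neutrophil growth factor, from 78.7 to 23.6 and from 45.8 to 17.4 CPM. For both the tags of the genotypes overlapped, since tag 4 of Brca2mut/WT HU had 390 CPM of Slpi and 35.4 CPM of Csf3. Of the lists, Krt14 and Krt5 of 4 basal markers, Cd14 of 10 HR- markers and Csn1s1 of 5 milk genes were called lower, and Ifit3 and Ifi27l2a of 17 interferon genes higher. With equal weight for the 4 tags Cd14 and both interferon genes were not called. Cell composition by tag, genotype and treatment cannot be told apart in these values, since tags are not tied to animals.

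**Figure D5:**
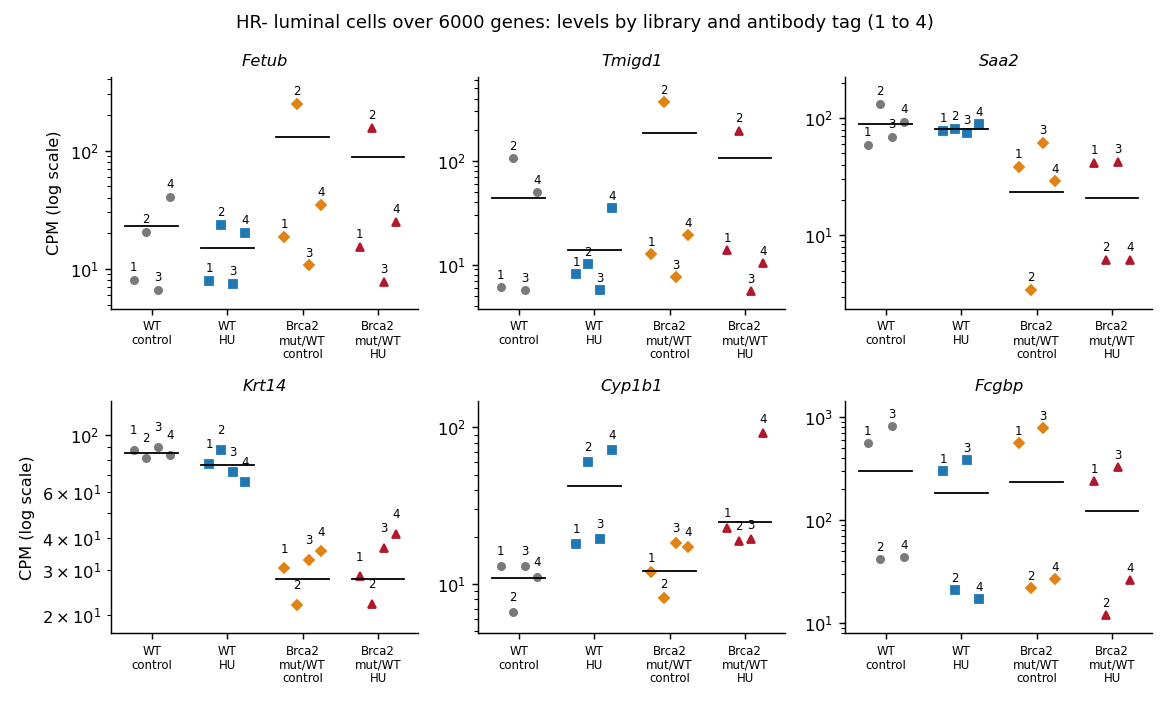
CPM (y axis, log scale) of 6 genes in HR- luminal members by library (x axis), with a line at the value of the library and 1 numbered symbol per antibody tag. Fetub and Tmigd1 stand out in tag 2 of the Brca2mut/WT libraries, Fcgbp splits tags 1 and 3 from 2 and 4, and Krt14 is lower in all Brca2mut/WT tags.

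Genes named by the study in other contrasts had these levels in the HR- luminal members, a list the study chose on these samples and so no independent evidence of its direction. Tspan8, a tetraspanin, had 180, 105, 185 and 200 CPM in WT control, WT HU, Brca2mut/WT control and Brca2mut/WT HU. Thrsp, a lipogenic regulator, had 74.4, 175, 181 and 244 CPM, and Aqp5 2442, 1865, 2900 and 2644 CPM. Ifit3, an interferon-induced gene, had 238, 164, 377 and 449 CPM, and Irf7, the transcription factor that drives such genes, 494, 502, 642 and 708 CPM. Ifi44, another interferon-induced gene, had 321, 240, 396 and 463 CPM. Of the 12 genes Brca2mut/WT HU was the highest library for Tspan8, Thrsp, Ifit3, Irf7 and Ifi44, Brca2mut/WT control for Aqp5 and Bcl2 (109 CPM), WT HU for Slpi, Fabp5 (426 CPM), Nme2 (966 CPM) and Tmsb4x (508 CPM), and WT control for Ptx3 (19.3 CPM). These values are pooled over tags whose shares differ. Tag 2 held 879 of 1734 HR- luminal members in Brca2mut/WT HU and 223 of 1256 in WT control. In Brca2mut/WT HU the interferon list summed to 8660 CPM in tag 2 and to 2701 to 3923 CPM in the other tags. With 1 library a condition their spread is unknown.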

How the data were processed

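Counts were read as deposited: UMI counts for 32285 genes and 4 antibody tags per cell barcode, which the authors made with Cell Ranger against mm10 (version 6.0.2 in the submitters' processing notes, 6.1.1 in the matrix headers) and analysed with Seurat 4.0 in R 4.1.3. The study kept cells of 1000 to 6000 genes under 5% mitochondrial UMIs, by its methods, and the members described here are above that gene limit. Of the 33268 deposited barcodes 17360 pass these limits, whereas the cell total that the study gives after quality control is larger than all deposited barcodes, so how the limits were applied there is not known here.

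Cells were thinned by drawing UMIs without replacement (seed 1). Genes with 20 CPM or more in either group in each library were tested for a 1.5-fold difference on log2(CPM + 1) in all 4 libraries. Between libraries the filter was 20 CPM or more in at least 1 of the 4. No count model was run, since each condition was 1 library. The cell counts and depth in the report set the precision, and intervals cover counting error only. The separate origin of the 2 replicates per library is not given in the sources used here.

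Named genes were the 10 rises and 10 falls (basal 5 and 5, between libraries 5 and 5 for each contrast) with the largest smallest log2 ratio, plus, per list, those with the highest CPM and the largest difference. Predicted genes were only counted. The members and gene lists were chosen with earlier results of these data known. The fixed alternatives changed scaling, filter, pseudocount, fold, cell weights, UMI range, cycling cells, cells with markers of both lineages, tag limit and library, and equal weight for the 4 tags in the comparison with cells of 3000 to 6000 genes was chosen after seeing the data. The calling step was tested on simulated data. Tools were Python 3.11.15, numpy 2.4.6, scipy 1.17.1, pandas 2.3.3, matplotlib 3.10.9, R 4.3.3 and edgeR 4.0.16 (TMM factors only).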

Additional observations from a re-analysis of the deposited data

Results flagged for a closer look

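The median of the interferon response list in HR- luminal members had opposite signs under HU in the genotypes. Of its 17 genes tested 0 were called, but a call needed the same direction in both genotypes. The median log2 ratio of HU against control was -0.39 in WT and 0.23 in Brca2mut/WT, so that the 1 library pair of each genotype moved the opposite way, and the difference was not tested. By tag (1, 2, 3 and 4) the list summed to 3133, 5104, 3448 and 4018 CPM in WT control and 3360, 3511, 3127 and 3299 CPM in WT HU. In Brca2mut/WT it summed to 3496, 7229, 2893 and 4609 CPM in control and 3923, 8660, 3247 and 2701 CPM under HU. Tag 2 was the highest in each of the 4 libraries, and the part of the tags in the difference was not tested.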

How the results depend on the processing

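With a limit of 7000 genes there were 3451 members. The ratio of genes at equal depth in HR- luminal cells was 1.08 at 5000 UMIs and 1.07 at 20000. The differences in cycling share (percentage points, mean over libraries) kept their direction. For HR- luminal cells S phase gave 24.5, and 17.0 with 15 genes needed, 27.1 with 5 and 15.2 at 5000 UMIs, and G2/M gave 29.2, and 23.8, 9.02 and 23.9. For basal cells S phase gave 27.3, and 18.8, 19.5 and 15.8, and G2/M gave 27.7, and 6.76 with 5 genes needed. The share of members with at least 4 markers of each lineage was 5.09% as a mean over libraries, against 12.6% with 3. Of HR- luminal genes (182 higher, 35 lower), 55 were lower with TMM, 117 and 57 were higher and lower with median-of-ratios factors, 489 and 75 with no filter, 77 and 5 at 2-fold, 99 and 9 with equal weight for the 4 tags, 6 and 18 without cycling cells, and 4 lower in the same UMI range. Leaving out 1 library each gave 183 to 225 higher and 35 to 57 lower. Of basal genes (75 and 12), 254 and 27 were called with no filter, 15 and 2 at 2-fold, 4 and 19 in the same UMI range, 22 lower with means of per-cell CPM, 28 higher without cells with markers of both lineages and 29 higher without cycling cells. Leaving out 1 library each gave 90 to 117 higher and 14 to 28 lower. HU against control gave 0 and 1 calls at 2-fold and 10 higher with equal tags, and Brca2mut/WT against WT 8 and 11 at 2-fold and 5 and 17 with equal tags. In the same UMI range the median log2 ratios of Sparc, Acta2, Palld and basal Apoe turned to 0.25, 0.63, 0.34 and 0.68. Without cycling cells Hist1h1b, Nusap1, Kif11 and Prc1 turned to -0.14, -0.17, -0.11 and -0.011 in HR- luminal cells, and Nusap1, Prc1, Top2a and Aurkb to -0.045, -0.12, -0.14 and -0.17 in basal cells. The removal of cycling cells selects on these same genes, and the cause of the other shifts was not tested. Each condition was 1 library, so no spread between cultures or animals is known. Between conditions no paired analysis was possible because the groups share fewer than 2 replicate numbers. Members and comparison cells were compared within each library.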

Other observations

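Cells over 6000 genes with several tags, which were not members, were 61.3% HR- luminal, 24.8% basal and 11.6% Areg-high, against 74.2, 16.3 and 7.81% of the members. In their HR- luminal cells 18.9% passed for S phase and 34.9% for G2/M, below the HR- luminal members of each library.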
